A study of Rattus norvegicus with 6 samples.

Results

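Autophagy receptors and the small proteins they bind were followed at the RNA level in rat neural stem/progenitor cells (NSPCs) on carbon films of 3 conductivities. The set held 10 genes of the 16881 gene symbols in the count tables, chosen by symbol: the receptors Sqstm1, Nbr1 and Optn, the LC3 and GABARAP genes Map1lc3a, Map1lc3b, Gabarap, Gabarapl1 and Gabarapl2, the initiation gene Becn1 and the transcription factor gene Tfeb. Sqstm1 was included with its High level already known, because the study names it among genes with more RNA on the High film. Its contrasts with High are therefore descriptions, and no test of them is given. All 10 genes had a count in at least 1 library and all 10 passed the filter on low counts, which kept 7729 of 17048 rows.

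The cells were wild type, came from the telencephalon of Sprague-Dawley rat embryos, and spent 24 h in stemness-maintaining medium on films of carbon nanotubes within graphene oxide nanoribbons. These 3 groups, “High”, “Medium” and “Low”, differed in how long the nanotubes had been oxidized, and longer oxidation gave a lower conductivity. Each film had 2 libraries of 3′ RNA sequencing (QuantSeq), and cells grown without a film were not analysed here. The labels do not say whether replicates came from separate cultures, so p-values measure only the spread between these libraries, which may be technical. No preparation batch is labelled, so a film and the handling of its libraries cannot be told apart.

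Autophagy encloses cytoplasm in a double membrane, the phagophore, which closes into an autophagosome and is delivered to the lysosome. Proteins of the LC3 and GABARAP family are attached to lipid in that membrane. Cargo receptors such as p62, the Sqstm1 product, bind ubiquitin on the cargo at one side and LC3 or GABARAP at the other, and are themselves degraded with the cargo. The p62 protein also binds KEAP1, the adaptor that marks the transcription factor NRF2 for degradation, and Sqstm1 is a known NRF2 target gene. RNA levels of these genes do not measure autophagic flux, which depends on protein turnover.

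Libraries held 5124863 to 6213676 counts. Rows with a count ran from 5355 in Medium replicate 1, the fewest, to 7809 in Medium replicate 2. The share of ribosomal RNA rows was 26.1% and 38.4% in the High libraries and 7.16% to 13.0% in the other 4. Values are given as CPM (counts per 1e+06 counts of the tested rows), scaled with the trimmed mean of M-values (TMM). Of 9 NSPC markers, 7 were detected, 6 of them in every library, and Msi1 and Prom1 had no count. Their summed level was 3197 to 3461 CPM on High, 5478 to 5507 CPM on Medium and 4570 to 6177 CPM on Low. Summed neuronal markers stayed between 0.172 and 33.9 CPM, with Rbfox3 and Syt1 at 0 in all libraries. Astrocyte markers (3 of 5 detected, Aqp4 and Aldh1l1 at 0) summed to 51.4 to 178 CPM, and oligodendrocyte lineage markers (6 of 7 detected, Sox10 at 0) to 326 to 413 CPM on High, 510 to 556 CPM on Medium and 619 to 748 CPM on Low. Of 6 microglial markers only Aif1 had counts, at 7.10 CPM in 1 Low library. Meningeal and vascular markers (3 of 7 detected, Pecam1 and Cldn5 at 0) summed to 401 CPM in Medium replicate 2 and to at most 27.7 CPM elsewhere. The part of these other cells in the results was not tested. Fewer cells of a type and less RNA per cell cannot be told apart in such bulk libraries.

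Sqstm1 encodes p62, the receptor that gathers ubiquitinated protein into the autophagosome. Sqstm1 stood at 1962 and 1946 CPM on High, at 1129 and 831 CPM on Medium, and at 658 and 782 CPM on Low. Both High libraries lay above all 4 others, and both Medium libraries lay above both Low libraries. Group levels were 1954 ± 10.7 CPM on High, 980 ± 211 CPM on Medium and 720 ± 88.0 CPM on Low (SD, n = 2 each). As a description, the fitted log2 fold change was −1.22 (standard error 0.21) for the average of the Low and Medium films relative to High, −1.44 (standard error 0.26) for Low and −0.996 (standard error 0.253) for Medium. The High level was thus 2.33 times the mean of the other films in the fit.

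The step from Medium to Low did not enter the choice of Sqstm1 and was tested. It came to a log2 fold change of −0.44 with a standard error of 0.25, and the adjusted p was 1 in the quasi-likelihood test of edgeR, with Benjamini-Hochberg adjustment over all genes tested. Medium and Low were therefore not separated beyond the spread, although their libraries did not overlap. In the data Sqstm1 was among the steadiest genes between replicates. Its pooled replicate SD was 0.207 on the log2 scale, beside a median of 1.51 over the genes tested, which put it at the 3.48 percentile. The genes in this comparison were not matched for level.

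The ribosomal RNA share moved with the Sqstm1 level, since both were highest on High. With the ribosomal rows removed, Sqstm1 was at 2386 and 2376 CPM on High, 1338 and 1011 CPM on Medium, and 803 and 956 CPM on Low. The order of the films was the same, and the log2 fold change of Low and Medium against High was −1.23. Scaling by library size alone moved the median of all genes from −0.12 to 0.26 and the Sqstm1 log2 fold change to −0.82, with the films again in the same order. On that scale Medium and Low nearly met, with Medium replicate 2 at 857 CPM and Low replicate 2 at 853 CPM. RefSeq lists a pseudogene of Sqstm1 that has no row in the count tables, and reads with multiple alignments were counted, so reads from near-identical copies could be included.

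**Figure D1:**
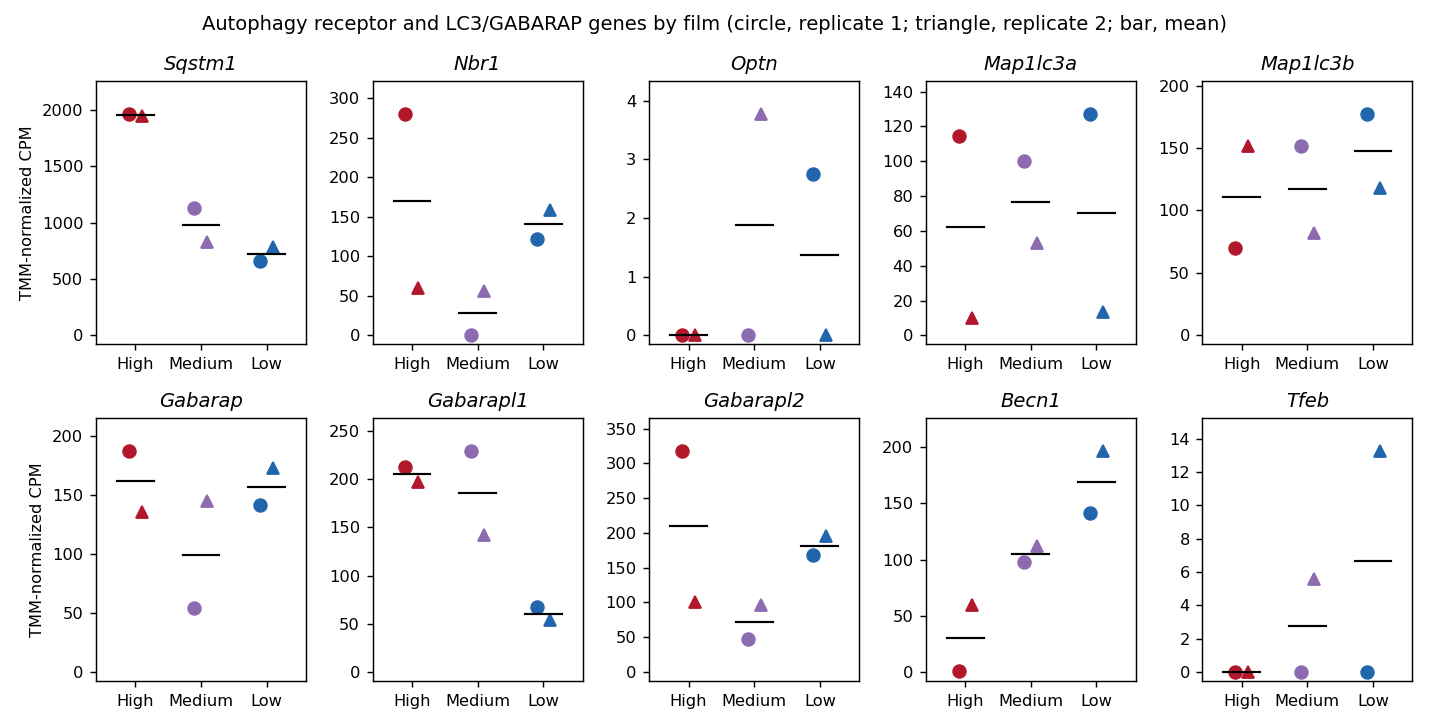
TMM-normalized CPM (y axis, each panel with its own scale) of the 10 genes in the High, Medium and Low libraries. Circles are replicate 1, triangles replicate 2 and bars the mean of the 2 libraries. Sqstm1 steps down from 1954 CPM on High to 720 CPM on Low and Becn1 steps up from 30.2 to 169 CPM, while the films overlap for Map1lc3a, Map1lc3b and Gabarap.

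The promoter windows below, from RefSeq on build GRCr8, are shown for Sqstm1 and Gabarapl1, which had their lowest libraries on Low, and for Map1lc3b, a family member whose films overlapped. Each runs 5′ to 3′ from 250 bases before the annotated start to 50 bases after it. Of the 10 genes, 8 had a window in this table, and Map1lc3a and Becn1 had none. Capitals mark TATAAA (the TATA box) and GGGCGG (the GC box, CCGCCC on the opposite strand) in the first and second sequences, and TGACNNNGC (the core of the antioxidant response element that NRF2 binds) in the third. The Sqstm1 window is chr10:35037701-35038000 on the minus strand, the Gabarapl1 window chr4:164666082-164666381 on the plus strand and the Map1lc3b window chr19:66574345-66574644 on the plus strand.
Sqstm1: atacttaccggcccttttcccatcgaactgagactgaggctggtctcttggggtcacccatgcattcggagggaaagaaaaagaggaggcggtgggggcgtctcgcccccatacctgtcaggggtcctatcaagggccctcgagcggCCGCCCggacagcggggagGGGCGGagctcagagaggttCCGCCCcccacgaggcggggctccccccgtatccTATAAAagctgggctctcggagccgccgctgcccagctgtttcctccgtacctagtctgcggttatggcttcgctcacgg
Gabarapl1: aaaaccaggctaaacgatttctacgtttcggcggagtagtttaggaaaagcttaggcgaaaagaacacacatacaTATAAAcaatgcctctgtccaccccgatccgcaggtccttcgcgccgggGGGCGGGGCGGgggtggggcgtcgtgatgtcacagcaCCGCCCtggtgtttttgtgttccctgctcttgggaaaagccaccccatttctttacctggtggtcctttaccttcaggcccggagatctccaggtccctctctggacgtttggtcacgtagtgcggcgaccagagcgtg
Map1lc3b: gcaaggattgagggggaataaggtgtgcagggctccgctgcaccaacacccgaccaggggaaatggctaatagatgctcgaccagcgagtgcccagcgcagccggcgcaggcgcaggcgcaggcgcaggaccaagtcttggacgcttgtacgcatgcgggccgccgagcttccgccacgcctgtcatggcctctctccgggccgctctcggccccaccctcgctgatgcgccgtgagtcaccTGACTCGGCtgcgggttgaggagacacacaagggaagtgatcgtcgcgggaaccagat
In the Sqstm1 window TATAAA began 30 bases before the start, and GGGCGG or its complement was found 3 times, from bases −103, −84 and −64. The Gabarapl1 window held TATAAA from base −175 and GGGCGG from −126 and −121, which overlap, with a complement from −89. The Map1lc3b window held TGACNNNGC from base −8 and neither of the other letters. Over both strands, TATAAA was in 2 of the 8 windows and in 14.2% of all 33469 promoters, GGGCGG in 7 of 8 and 33.1%, and TGACNNNGC in 2 of 8 (Map1lc3b and Gabarap) and 12.1%. CACGTG, the core of the element that TFEB binds, was in 0 of 8 and 6.42%. These are matches of letters, and no binding was measured.

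Nbr1 encodes a receptor that also binds ubiquitin and LC3 and works beside p62. Nbr1 was at 280 and 59.4 CPM on High, at 0 and 56.1 CPM on Medium, and at 123 and 159 CPM on Low. High replicate 1 was the highest library, and High spanned both Low libraries. Medium replicate 1, the library with the fewest rows detected, had no count. Group levels were 170 ± 156 CPM on High, 28.05 ± 39.7 CPM on Medium and 141 ± 26.0 CPM on Low (SD, n = 2 each). For Low and Medium against High the log2 fold change was −1.43 (standard error 1.39, adjusted p = 0.936 in edgeR). Low lay above Medium in both libraries, with a log2 fold change of 2.33 and a standard error of 1.75 (edgeR, adjusted p = 1). Without Medium replicate 2, Medium is left with its 0 and Nbr1 passes in edgeR (adjusted p = 0.000807 for Low and Medium against High, 0.000511 for Medium against High and 0.000924 for Low against Medium), a call that rests on 1 library. Without High replicate 1 the log2 fold change of Low and Medium against High was 0.08.

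Optn encodes optineurin, a receptor for damaged mitochondria and bacteria that TBK1 phosphorylates. It was barely detected, with 23 counts in Medium replicate 2, 19 counts in Low replicate 1 and 0 counts in the other 4 libraries. Tfeb, the gene of a transcription factor that switches on lysosomal and autophagy genes, had 34 counts in Medium replicate 2, 79 counts in Low replicate 2 and 0 counts elsewhere. A count of 0 allows up to 3 counts at this depth, counting error alone considered. Both High libraries were at 0 for both genes, but so was 1 library of each other film, so no fold is given. In edgeR, for Low and Medium against High, the adjusted p was 0.801 for Optn and 0.801 for Tfeb.

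The LC3 and GABARAP genes encode the proteins that receptors dock on. Of the 5, on the TMM scale, Gabarapl1 had both Low libraries and Gabarapl2 both Medium libraries below all others, and the films of the other 3 overlapped. Gabarapl1, which encodes a GABARAP-like protein with roles in autophagosome formation, was at 213 and 197 CPM on High, at 229 and 142 CPM on Medium, and at 67.1 and 53.5 CPM on Low. High and Medium overlapped, and both Low libraries lay below the other 4. Group levels were 205 ± 11.3 CPM on High, 186 ± 62.0 CPM on Medium and 60.3 ± 9.57 CPM on Low (SD, n = 2 each).

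For Gabarapl1 the log2 fold change of Low against High was −1.76 with a standard error of 0.61 (adjusted p = 0.899 in edgeR, under 0.05 before adjustment). Against Medium, Low came to −1.62 with a standard error of 0.60 (adjusted p = 1 in edgeR, under 0.05 before adjustment). Medium against High was −0.14 (standard error 0.59). Neither difference passed the adjustment in edgeR, and in DESeq2 both did, with adjusted p of 0.00885 and 0.0463. In limma-voom the adjusted p were 0.580 and 0.830. Between replicates Gabarapl1 had a pooled SD of 0.314 on the log2 scale, at the 7.66 percentile of the genes tested, not matched for level. Over the 6 fits that each left out 1 library, the Low against High log2 fold change ran from −1.94 to −1.61.

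Gabarapl2, which encodes the GABARAP relative also known as GATE-16, had its low film at Medium. It was at 318 and 101 CPM on High, at 47.0 and 95.8 CPM on Medium, and at 168 and 196 CPM on Low. Both Medium libraries were below all others, and High spanned Low. With scaling by library size alone, Medium replicate 2 was at 98.7 CPM and High replicate 2 at 78.0 CPM, so Medium and High overlapped. The group levels of Gabarapl2 were 209 ± 154 CPM on High, 71.4 ± 34.5 CPM on Medium and 182 ± 19.6 CPM on Low (SD, n = 2 each). In edgeR the log2 fold change was −1.55 for Medium against High (standard error 0.71, adjusted p = 0.908) and 1.35 for Low against Medium (standard error 0.71, adjusted p = 1). The Medium against High value was −0.49 without High replicate 1 and −2.18 without Medium replicate 2. For Low and Medium against High, the value of −0.88 was 0.18 without High replicate 1.

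Gabarap, which encodes the founding member of its subfamily, was at 187 and 136 CPM on High, at 54.1 and 145 CPM on Medium, and at 141 and 172 CPM on Low. All films overlapped, with 1 Medium library low. The log2 fold change of Low and Medium against High was −0.37 with a standard error of 0.59 (edgeR, adjusted p = 0.9997).

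Map1lc3b encodes LC3B, the protein most often used to follow autophagosomes. It was at 70.3 and 151 CPM on High, at 152 and 82.0 CPM on Medium, and at 177 and 118 CPM on Low, and every film overlapped every other. Its log2 fold change of Low and Medium against High was 0.24 (standard error 0.64, adjusted p = 0.9997 in edgeR). Map1lc3a, the gene of LC3A, was at 114 and 10.3 CPM on High, at 100 and 52.8 CPM on Medium, and at 127 and 13.4 CPM on Low. The replicates of Map1lc3a differed far more than the films, whose means were 62.3, 76.4 and 70.2 CPM. The log2 fold change was 0.23 with a standard error of 1.28 (edgeR, adjusted p = 0.9997). Without High replicate 1 it was 2.84, and without Low replicate 1 it was −0.96. RefSeq lists pseudogenes of Map1lc3b, Gabarap and Gabarapl2 that have no row in the count tables, so these 3 genes are uncertain where reads align more than once. The pseudogene Gabarapl3 and the protein-coding genes Gabarapl4, NBR1l1 and Becn2 have no row either. Their sequences were not compared with those of the set, so the same may hold for other members, Gabarapl1 and Nbr1 among them.

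**Figure D2:**
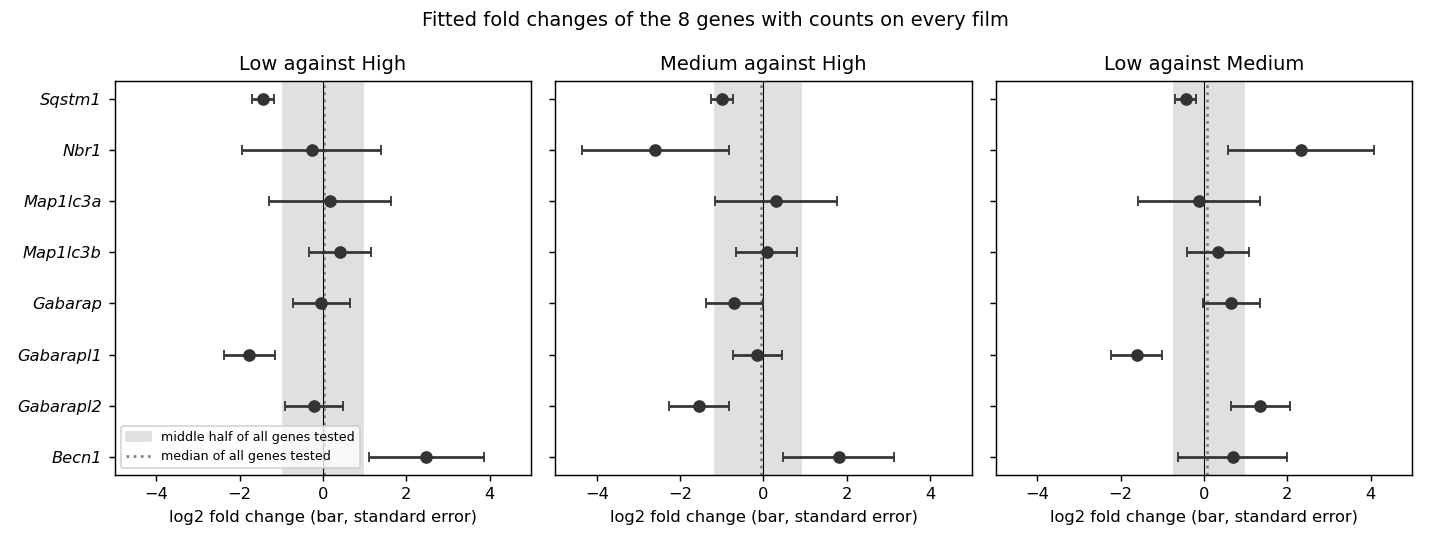
Fitted log2 fold changes (x axis) with standard errors for the 8 genes with counts on every film, in Low against High, Medium against High and Low against Medium. The grey band holds the central 50% of all 7729 genes tested and the dotted line their median. Gabarapl1 lies left of the band in both panels with Low, and the bars of Nbr1, Map1lc3a and Becn1 are the widest.

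The make-up of the family within each library does not depend on the scaling between libraries. These shares are of 3′ counts, which were not scaled to transcript length, so they compare libraries rather than genes. The Gabarapl1 share was 23.6% (95% exact binomial interval 22.4 to 24.9) and 33.1% (31.3 to 35.01) on High. On Medium it was 39.4% (37.7 to 41.1) and 27.4% (25.9 to 29.0). On Low it was 9.86% (9.02 to 10.7) and 9.69% (8.70 to 10.8). Both Low libraries were below all others and agreed within counting error, which is the only error the intervals cover. The Gabarapl2 share, by contrast, ran from 16.9% (15.5 to 18.5) to 35.2% (33.8 to 36.7) within High alone. The Map1lc3a share was 12.7% (11.7 to 13.7) and 1.72% (1.25 to 2.32) on High, and 18.7% (17.6 to 19.8) and 2.43% (1.93 to 3.02) on Low. Sqstm1 counts over the summed counts of the 5 genes gave ratios of 2.17 and 3.27 on High, 1.94 and 1.61 on Medium, and 0.967 and 1.42 on Low. This ratio uses the Sqstm1 values and is a description, with both High libraries above the other 4.

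**Figure D3:**
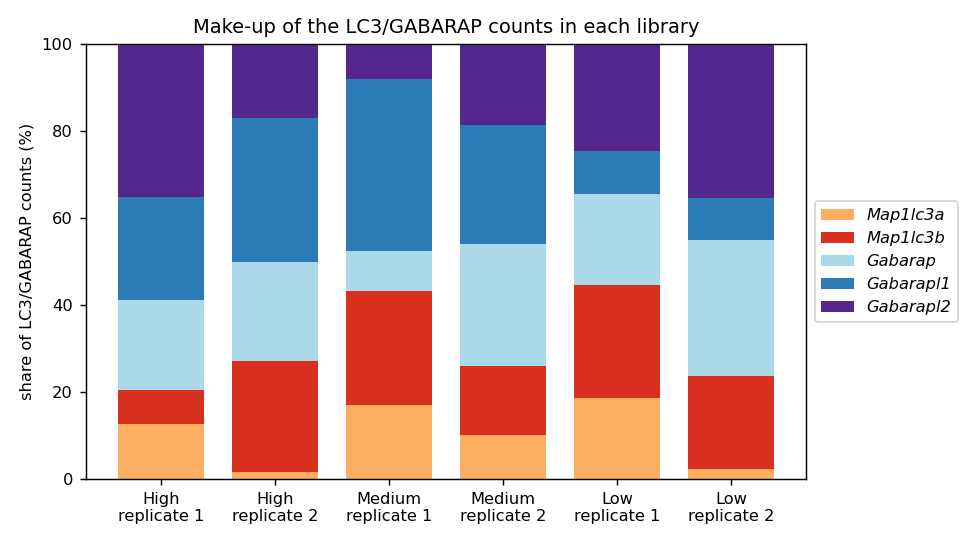
Share (%, y axis) of each of the 5 LC3 and GABARAP genes in their summed counts, 1 stacked bar per library. The Gabarapl1 segment is 9.86% and 9.69% in the Low libraries and 23.6% to 39.4% in the other 4, while the Map1lc3a and Gabarapl2 segments differ between replicates of a film.

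Becn1 encodes beclin 1, a subunit of the lipid kinase complex that starts the phagophore. Becn1 was at 1.03 and 59.4 CPM on High, at 98.0 and 113 CPM on Medium, and at 142 and 197 CPM on Low. The films were in the order High, Medium, Low without overlap, opposite to Sqstm1. High replicate 1 stood apart with 5 counts beside 249 in replicate 2. Group levels of Becn1 were 30.2 ± 41.3 CPM on High, 105 ± 10.3 CPM on Medium and 169 ± 39.0 CPM on Low (SD, n = 2 each).

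For Becn1 the log2 fold change was 2.14 (standard error 1.26) for Low and Medium against High, and edgeR gave an adjusted p of 0.801. Low against Medium was 0.68 (standard error 1.31, adjusted p = 1 in edgeR). Neither passed. Without High replicate 1 the value was 1.17 (edgeR, adjusted p = 0.9999). Without High replicate 2, which leaves the library with 5 counts to stand for High, it was 6.99 (edgeR, adjusted p = 0.0111), and Low and Medium each against High then passed too (adjusted p = 0.00926 and 0.0263). The call therefore turned on which High library was kept. Cntd1 overlaps Becn1 in RefSeq and had 10 and 214 counts on High, 576 and 418 on Medium, and 801 and 782 on Low. Whether strand was used in counting is not stated, so reads of Becn1 and Cntd1 cannot be told apart.

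Across the set, 0 of the 9 genes tested passed for Low and Medium against High in edgeR at an adjusted p under 0.05, where 0.129% of all genes tested did. The smallest unadjusted p was 0.0829, and 0 of the 9 were under 0.05, beside 5.5% of all genes. DESeq2 and limma-voom also called 0, where they called 4.72% and 0.298% of all genes, with 1 and 0 genes at an unadjusted p under 0.05. The share of all genes at that unadjusted level is not given for these tools, so nothing is read from these counts. For Low against High 0 of 9 passed in edgeR (0.0518% of all genes) and 1, Gabarapl1, was under 0.05 unadjusted (4.27% of all genes). There DESeq2 called 1 (4.08% of all genes) and limma-voom 0 (0.207%). For Medium against High 0 of 9 passed (0.0129% of all genes) and 0 were under 0.05 unadjusted (4.04%), and DESeq2 and limma-voom called 0 (4.31% and 0.181% of all genes). For Low against Medium 0 of 10 passed, where 0% of all genes did, and 1, Gabarapl1, was under 0.05 unadjusted (1.51% of all genes), with 1 call in DESeq2 (1.73% of all genes) and 0 in limma-voom (0%).

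For Low and Medium against High, 5 of the 9 fitted values were above 0, beside 45.9% of all genes. The counts above 0 were 5 of 9 for Low against High (50.5% of all genes), 5 of 9 for Medium against High (47.6%) and 6 of 10 for Low against Medium (52.6%). Optn and Tfeb had no count on High, so in the comparisons with High their values could only come out above 0. For Low and Medium against High, the median over the 7 of the 9 genes with no film at the floor of 3 counts was −0.37. Over all genes, those with a film at the floor included, it was −0.12. The comparisons with High share the High libraries, so their values are not independent of each other. By library, 2 of the 10 genes, Sqstm1 (lower) and Becn1 (higher), had all 4 Low and Medium libraries outside the range of High, and 18.2% of all genes did. The same 2 genes had the 3 films in order without overlap, and 2.54% of all genes did, 1.18% with High highest and 1.36% with High lowest. Sqstm1 was known to be high on High, so its part of that count was fixed by the choice. Between Low and Medium 5 of 10 did not overlap, with Sqstm1 and Gabarapl1 lower on Low and Nbr1, Gabarapl2 and Becn1 higher, beside 29% of all genes.

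For many genes 1 replicate of a film had no count while the other had at least 50. In the set this was seen for 2 of 10, Nbr1 on Medium and Tfeb on Low, beside 38.9% of all genes for at least 1 film. By film it held for 14.4% of all genes on High, 23.4% on Medium and 14.9% on Low. The median standard error of the set for Low and Medium against High was 1.26 on the log2 scale, beside 1.94 over all genes.

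**Figure D4:**
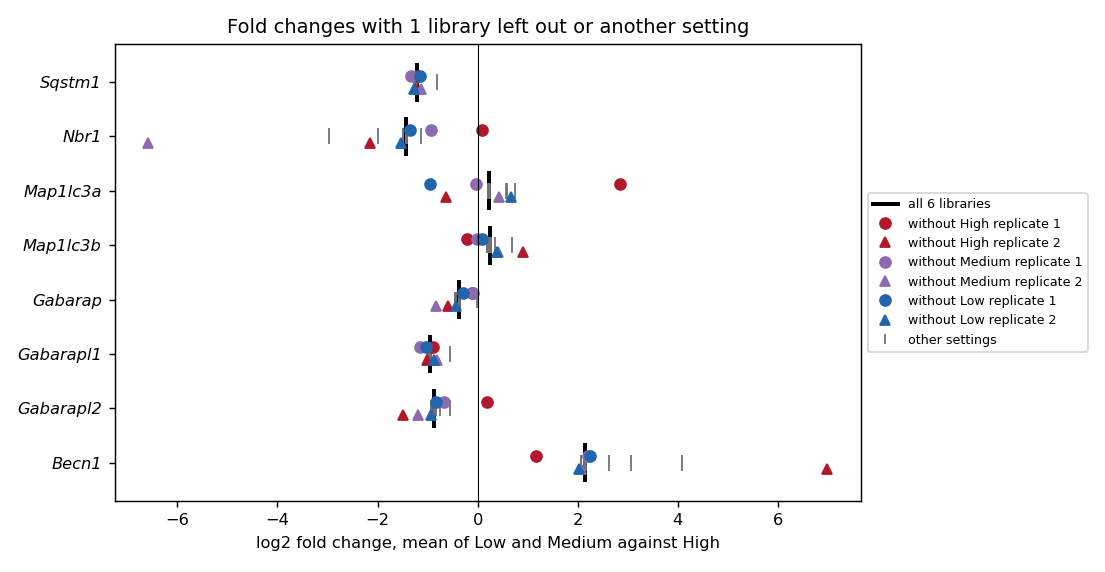
Log2 fold change of Low and Medium against High (x axis) of 8 genes with all 6 libraries (black bar), with each library left out in turn (coloured points) and under the other settings (grey ticks). Sqstm1 stays between −1.34 and −1.13 when a library is left out, Becn1 spans 1.17 to 6.99 and Nbr1 −6.57 to 0.08.

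The rest of the pathway was read from 10 lists of other genes, 136 of which passed the filter. Counts of values above and below 0 are over the genes tested, and medians leave out genes with a film at the floor of 3 counts. For Low and Medium against High, 0 rose and 1, Hmox1, fell in edgeR, beside 0.0388% of all genes tested that rose and 0.0906% that fell. At an unadjusted p under 0.05 there were 15 of 136, beside 5.5% of all genes. DESeq2 called 9 and limma-voom 2, beside 4.72% and 0.298% of all genes. Of the 136, 45 had values above 0 and 91 below. By library, 3 lay wholly above High and 23 wholly below, beside 8.06% and 10.1% of all genes. Hmox1 was known to be high on High, and the lists were chosen with earlier results of these data known. These counts are therefore a description and no independent evidence of a direction.

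The other cargo receptors (15 tested) had 7 values above 0 and 8 below, with a median of 0.05 over the 14 with no film at the floor and 2 genes at an unadjusted p under 0.05. The endoplasmic reticulum receptors Sec62 and Rtn3 had overlapping films, with Sec62 at 492, 475 and 461 CPM on High, Medium and Low. Rtn3 was at 280, 297 and 338 CPM, and its Low libraries were at 153 and 524 CPM. Regulators of receptors (14 tested) had 4 above 0 and 10 below, with a median of −0.16. There were 3 at an unadjusted p under 0.05 and 5 wholly below High, beside 5.5% and 10.1% of all genes. Among them Vcp, a segregase that extracts ubiquitinated proteins, was at 1242 ± 295 CPM on High, 726 ± 39.5 CPM on Medium and 861 ± 133 CPM on Low (SD, n = 2 each), with all 4 libraries below High. Its log2 fold change was −0.65 with a standard error of 0.23 (edgeR, adjusted p = 0.788).

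The ULK1 and PI3K complexes that start autophagy (12 tested) had 3 above 0 and 9 below, a median of −0.33 over the 10 with no film at the floor and 1 gene at an unadjusted p under 0.05. Ulk1, the initiating kinase, was at 121 and 167 CPM on High, 136 and 45.9 CPM on Medium, and 17.5 and 59.1 CPM on Low, so High and Medium overlapped. The log2 fold change of Ulk1 was −1.29 with a standard error of 0.84 (edgeR, adjusted p = 0.801). Rb1cc1, its scaffold FIP200, was at 130, 92.7 and 95.1 CPM. Genes of phagophore growth (8 tested) had 1 above 0 and 7 below, with a median of −0.40 over 7. Vmp1 was at 89.9, 94.9 and 147 CPM, and Wipi2 at 37.9, 179 and 5.12 CPM with an SD of 185 on Medium. The conjugation machinery (7 tested) had 4 above 0 and 3 below, with a median of 0.09 over 5 and 1 gene at an unadjusted p under 0.05. Atg12 was at 137, 180 and 92.9 CPM and Atg3, the enzyme that carries LC3 to lipid, at 53.6, 51.8 and 62.4 CPM.

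Downstream, genes of fusion with the lysosome (11 tested) had 5 above 0 and 6 below, a median of −0.28 over 10 and 0 at an unadjusted p under 0.05. Rab7a, the late endosome GTPase, was at 147, 129 and 112 CPM and the tethering subunit gene Vps41 at 56.7, 9.43 and 80.1 CPM. Lysosomal genes (24 tested) had 11 above 0 and 13 below, with a median of −0.15 over 20 and 0 at an unadjusted p under 0.05. Cd63, a lysosomal membrane protein gene, was at 1542, 1130 and 1333 CPM and Psap, which encodes activators of lipid breakdown, at 537, 613 and 383 CPM. Subunits of the vacuolar ATPase that acidifies the lysosome (14 tested) had 5 above 0 and 9 below, with a median of −0.22 and 1 at an unadjusted p under 0.05. Atp6v1g1 was at 708, 981 and 803 CPM and Atp6v1f at 349, 236 and 403 CPM. Lysosomal genes were thus spread on both sides of 0, as were all genes.

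Controllers of TFEB-type factors and of mTORC1, the kinase complex that restrains autophagy (24 tested), had 5 above 0 and 19 below, with a median of −0.92 over 23 and 3 at an unadjusted p under 0.05. Of these, 7 lay wholly below High, and 10.1% of all genes did. Rraga, a GTPase of mTORC1 control, was at 332, 278 and 406 CPM.

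The NRF2 targets (7 tested) had 0 above 0 and 7 below, with a median of −1.56. There were 4 at an unadjusted p under 0.05 and 4 wholly below High, beside 5.5% and 10.1% of all genes. Hmox1, which encodes the haem-degrading enzyme heme oxygenase-1, was the gene that fell, with a log2 fold change of −2.36 and a standard error of 0.19 (edgeR, adjusted p = 0.00168, lower in 4 of 4 libraries). The study itself names Hmox1 as high on High, and the list was chosen with that known, so it is not independent evidence of a direction. Hmox1 counts were 2.58 and 2.42 times those of Sqstm1 on High, 0.815 and 1.06 times on Medium, and 1.28 and 1.4996 times on Low, so the ratio was highest on High. Txnrd1, a thioredoxin reductase gene, was at 807 and 652 CPM on High, 189 and 210 CPM on Medium, and 343 and 273 CPM on Low. Its log2 fold change was −1.56 with a standard error of 0.28 (edgeR, adjusted p = 0.0890). Txnrd1 passed in limma-voom and DESeq2, and in edgeR without any 1 library other than High replicate 1 (adjusted p of 0.00398 to 0.0475). Nqo1, a quinone reductase gene, was at 88.2 and 119 CPM on High, 92.5 and 34.3 CPM on Medium, and 4.06 and 69.5 CPM on Low, and Medium overlapped both other films.

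Nfe2l2, which encodes NRF2, was at 305 and 211 CPM on High, 8.41 and 101 CPM on Medium, and 70.8 and 30.4 CPM on Low. All 4 libraries were below High. The log2 fold change of Nfe2l2 was −2.29 with a standard error of 0.86, which did not pass (edgeR, adjusted p = 0.801). Without Medium replicate 2 it passed, at −3.66 (edgeR, adjusted p = 0.00409). Keap1, the p62 partner, was at 3.09 and 39.6 CPM on High, 49.1 and 102 CPM on Medium, and 61.4 and 3.02 CPM on Low, whose libraries spanned those of High.

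Further calls of DESeq2 for Low and Medium against High, named here after their values were seen, included the cargo receptor gene Phb2 (higher, 340 CPM beside 131 CPM on High) and, lower, Vcp, Atg14, Atg16l1, Atp6v0c, Srxn1 and Txnrd1. Atg14 and Atg16l1 each had a film at the floor of 3 counts, so no fold is given for them. In the main edgeR fit none of these passed, and of them Txnrd1 passed in limma-voom. With no filter Srxn1 and Txnrd1 passed in edgeR too (adjusted p = 0.000681 and 0.00263). Both also passed in edgeR with a mean count of at least 10 (adjusted p = 0.00186 and 0.00330). The same held in edgeR with replicate number as a block (adjusted p = 0.00405 and 0.00448). Phb2 encodes prohibitin 2, an inner mitochondrial membrane protein that binds LC3.

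**Figure D5:**
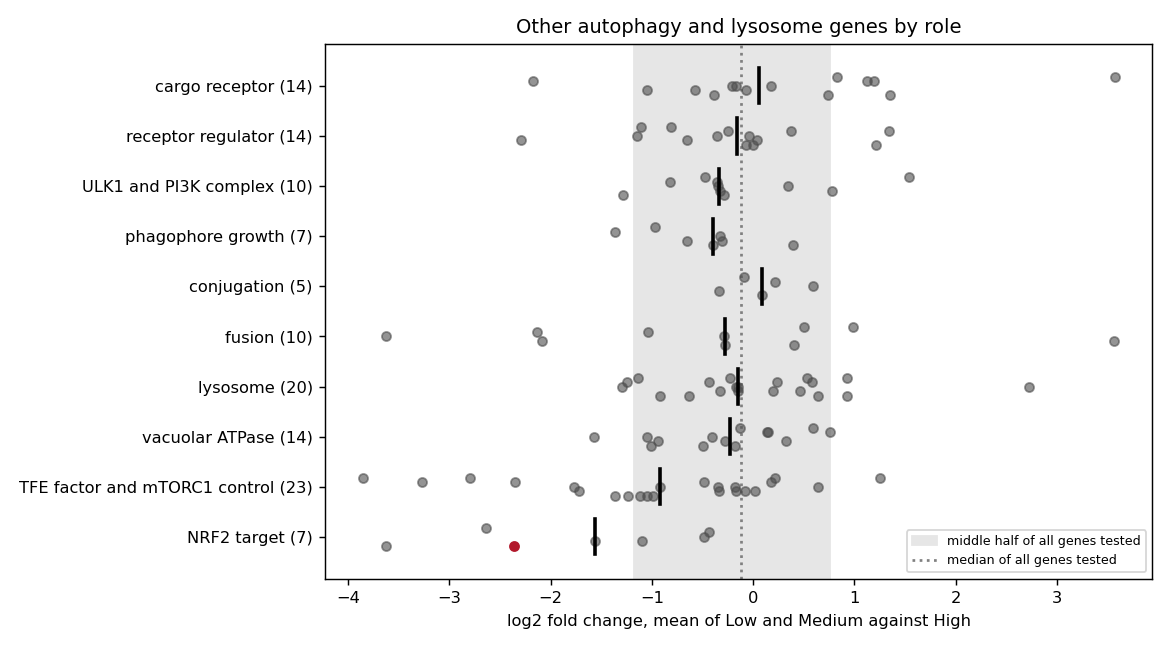
Log2 fold change of Low and Medium against High (x axis) of the genes in 10 pathway lists, by role, with the number plotted in brackets (genes with no film at the floor of 3 counts) and a bar at each median. The grey band holds the central 50% of all genes tested, those with a film at the floor included. The 1 red point is Hmox1, the list medians run from −1.56 for NRF2 targets to 0.09 for conjugation.

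The genes whose pattern over the 6 libraries was most like that of Sqstm1 were found by the root mean square (RMS) difference of log2(CPM + 1), each gene centred on its own mean, among 3267 genes with a mean of at least 50 CPM. The closest were Tmem229a (RMS difference 0.190), Dnaja1 (0.195), Snx6 (0.241), Kansl2 (0.258) and Nxf1 (0.262), beside a median of 0.966. Dnaja1 encodes a co-chaperone of HSP70, Snx6 a sorting nexin of endosomes, Kansl2 a subunit of a histone acetyltransferase complex and Nxf1 the main mRNA export receptor. Dnaja1 was at 695 and 690 CPM on High, 597 and 339 CPM on Medium, and 269 and 338 CPM on Low. Nxf1 was at 382 and 553 CPM on High, 190 and 143 CPM on Medium, and 119 and 132 CPM on Low. These genes were picked for this likeness, so their levels are a description.

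Among the other genes of the set, Gabarapl1 was nearest to Sqstm1 by the same measure (RMS difference 0.515, rank 199 of 3267). Gabarap followed at 0.836 (rank 1179) and Map1lc3b at 0.894 (rank 1422). Becn1 (2.72, rank 3177) and Nbr1 (2.73, rank 3180) were among the least alike, although Nbr1 encodes the receptor that partners p62. All these points share libraries and depth, and no test was made.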

How the data were processed

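QuantSeq 3′ libraries of NSPCs were single-end. Alignment by the authors used Bowtie2, and their gene counts, from bedtools coverage, include reads that align uniquely and those that align more than once. The deposited values are these raw counts, 1 table per library, before any normalization. The submitters' processing notes name build rn6, while the annotation, the strand setting and duplicate removal are not given in the sources used here. RNA was isolated with Trizol according to the labels and with a column kit according to the study's methods. Each table held 17048 rows, of which 167 repeat a symbol, none of the 10 genes among them.

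Counts were filtered with filterByExpr, scaled with TMM and tested with edgeR 4.0.16 (quasi-likelihood test, Benjamini-Hochberg adjustment over all 7729 rows, threshold 0.05) in R 4.3.3, with all 6 libraries in 1 fit of 3 film means. The contrasts were Low and Medium against High, each film against High, and Low against Medium. DESeq2 1.42.0, limma 3.58.1 (voom), other scalings and filters, the films compared alone and the omission of single libraries were alternatives. CPM are counts over the summed counts of the tested rows times the TMM factor. The fit was also run on simulated data. The pass mark there was set only for a dispersion far below that of these data, so power here was not shown. Totals were 5124863 to 6213676 counts, and intervals cover counting error only, since the tables hold no molecular identifiers.

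The members and lists were chosen with earlier results of these data known. The text names the 10 genes, from each list the genes past the threshold and the 2 with the highest mean CPM, Keap1, Nfe2l2, Hmox1 and Nqo1, and the 5 genes most like Sqstm1. A few genes that this rule would name are not reported here. Replicate numbers recur across films and were not used to pair libraries in the main fit. Promoter sequences are RefSeq's on GRCr8, a build other than that of the counts, and were matched by symbol.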

Additional observations from a re-analysis of the deposited data

How the results depend on the processing

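Of 573 fold changes recomputed under an alternative, 522 kept their direction and their side of the threshold, 17 reversed, 30 passed the threshold that they had missed and 4 moved by more than the replicate spread. Sqstm1 stayed below High in each of these, from −1.34 to −0.82 for Low and Medium against High. Genes of the set past the threshold, 0 in each comparison, became 1 with DESeq2 for Low against High and for Low against Medium (Gabarapl1), and ran from 0 to 1 in each of the 4 comparisons when 1 library was left out (Becn1 without High replicate 2, Nbr1 without Medium replicate 2), where a lone library was assumed to vary like the other films. The fitted Nbr1 values against a Medium film at 0 are no bounds. Pathway genes past the threshold, 1 with all libraries, were 9 with DESeq2, 2 with limma-voom, 6 with no filter and 5 with a mean count of at least 10, and 2 to 11 without 1 library. The replicate block gave 5 pathway genes and 0 genes of the set, and moved the count over all genes from 10 to 57, beside 351 with DESeq2, 23 with limma-voom, 68 with no filter, 56 with a mean count of at least 10, and 34 to 242 without 1 library. Deviations of same-numbered libraries correlated at 0.00342 to 0.00733 across genes, so no shared deviation by number was seen. Whether same-numbered libraries shared a culture or a run is not labelled and was not tested. Scaling by library size alone turned Gabarapl2 (0.15) and Nbr1 (0.0750) in Low against High and Gabarapl1 (0.25) in Medium against High, as did limma-voom for Nbr1 (0.00797) in Low against High. With 1 library left out, the sign also turned for Nbr1 (−6.57 to 0.0835), Map1lc3a (−0.96 to 2.84), Map1lc3b (−0.20 to 0.90) and Gabarapl2 (−1.48 to 0.18) in Low and Medium against High. The same held for Gabarapl2 (−0.81 to 0.85) and Nbr1 (−0.99 to 1.25) in Low against High, for Gabarapl1 (−0.53 to 0.13) in Medium against High, and for Map1lc3a (−2.51 to 0.73) and Map1lc3b (−0.0172 to 0.85) in Low against Medium. The cause was not tested. Total counts were similar across libraries, but ribosomal RNA rows took 26.1% and 38.4% of them on High and 7.16% to 13.0% elsewhere. Rows with a count ran from 5355 to 7809. With 2 libraries a film, the common dispersion was 2.04 and the median standard error in the set 1.26 on the log2 scale.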
